A study of Mus musculus with 8 samples.

Results

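Mctp1 encodes a multiple C2 domain and transmembrane region protein, and 186 of the 8492 cytosines in the deposited table of RNA methylation sites lay inside its gene. The members were chosen by position alone, as every listed cytosine on chromosome 13 between 76382362 and 77033284 of mouse build GRCm38, the span that RefSeq gives for the gene. The gene itself was picked because it holds many listed sites, so its number of sites and its level are descriptions, and no test is attached to them.

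The sites were measured by RNA bisulfite sequencing in bone marrow derived mast cells of the C57BL/6 strain, cultured with IL-3 and SCF and carrying the surface receptors FcεRI and c-Kit. The 4 libraries used here are of genotype Tet2-/-, from 2 biological replicates with 2 technical replicates each; the study also has 4 wild-type libraries of cells grown in the same cytokines, whose levels were not analysed here. The labels do not say how the Tet2 allele was made, whether marrow of several animals was pooled, or whether any cells were stimulated. The libraries are called K1rep1, K1rep2, K2rep1 and K2rep2 below, where K1 and K2 are read as the biological and rep1 and rep2 as the technical replicates. Because the authors listed sites specific to the Tet2-deficient group, the levels below do not compare the genotypes.

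C2 domains are folds that bind membrane lipids, many of them when calcium is present, and MCTP proteins carry several of them next to membrane-spanning segments at their carboxyl end. In flies the single Mctp protein acts in the endoplasmic reticulum of nerve terminals and is needed for homeostatic control of transmitter release. Mast cells release their granules on a rise in calcium, and other proteins with C2 domains, among them synaptotagmins and Munc13-4, act in that release. RNA 5-methylcytosine is written by enzymes such as NSUN2, and Tet2 oxidises 5-methylcytosine. Bisulfite turns unmodified cytosine into uracil, and the level of a site gives the percentage of its reads in which cytosine was retained; cytosine that escaped conversion is included. Read numbers are not in the table, so the exact depth is unknown and no counting interval can be given. Many values are simple fractions repeated at neighbouring sites, such as 83.3% in K2rep1 at every listed site from 76715398 to 76715420. Few shared reads could give such values, so differences between libraries there may rest on few reads. This was not tested.

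The Mctp1 sites fell into 7 short stretches scattered over a long gene. Sites up to 500 bases apart were joined into a stretch, and stretches are numbered from 1 to 7 in the direction of the gene, which lies on the plus strand. Together they covered 1902 bases, or 0.292% of the span of 650923 bases. Stretch 1 had 7 sites from 76582730 to 76582776 and stretch 2 had 46 sites from 76586513 to 76587456. Stretch 3, the one with the most sites, had 64 sites from 76715157 to 76715450. Stretch 4 was the single site 76719664, and stretch 5 had 36 sites from 76722787 to 76722957. Stretch 6 had 4 sites from 76785495 to 76785502, and stretch 7 had 28 sites from 76971596 to 76972032. Stretches 2, 3, 5 and 7 thus held 174 of the 186 sites (93.5%).

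All 186 sites lay downstream of the start site in the RefSeq promoter table, position 76579597. The nearest was 3.13 kb and the farthest 392 kb from it. The 50 bases that follow this start hold 12 cytosines on the gene's strand, and none of them was listed; only 2 of the table's 8492 sites lay in the promoter window of any gene, which runs from 250 bases before to 50 after a start. The gene has 14 RefSeq transcripts, and its span begins well before this start, 200 kb ahead of the first listed site. Exons, introns and untranslated regions were not analysed here, so a stretch inside the span need not lie in the mature mRNA, and the table gives no strand for a site. Another 6 annotated genes lie within the span, and 0 of the Mctp1 sites fell in them; the nearest, the pseudogene Gm18563, ended 13.1 kb from a listed site.

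**Figure D1:**
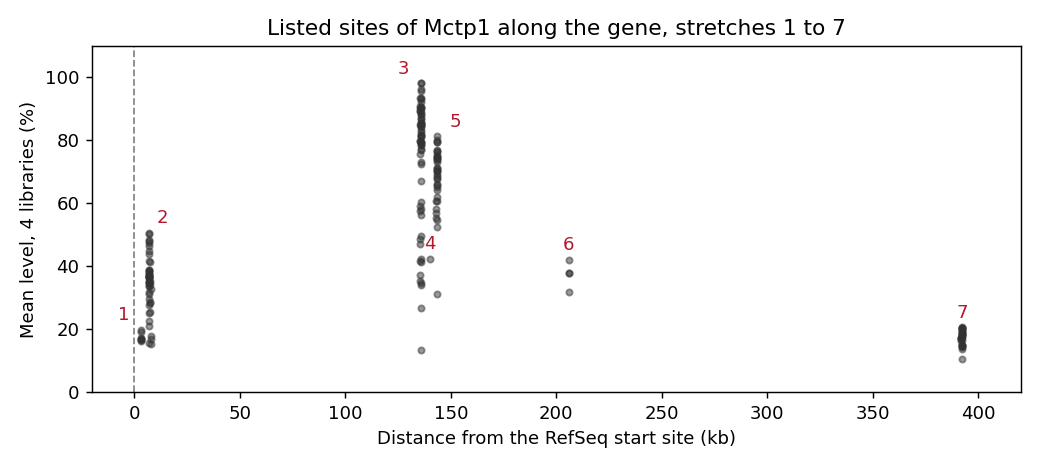
Mean level over the 4 Tet2-/- libraries in percent (vertical axis) of each of the 186 listed Mctp1 sites, against the distance from the RefSeq start site in kb (horizontal axis; dashed line, the start). Numbers mark stretches 1 to 7: stretches 3 and 5 lie 136 to 143 kb into the gene and hold the high levels, while stretches 1 and 7 stay near 20% or below.

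No other listed site lay near the gene. The next listed site on chromosome 13 before the span was at 67706831, 8676 kb away, with levels of 62.5%, 33.3%, 30.8% and 33.3% in K1rep1, K1rep2, K2rep1 and K2rep2. The next one after it was at 95336484, 18303 kb away, with 17.6%, 22.6%, 27.3% and 12.7%. The neighbouring genes, the long noncoding RNA Gm31516 on the left and Slf1, a factor that recruits the SMC5/6 complex in DNA repair, on the right, had 0 listed sites each. Mctp1 held 21.3% of the 872 listed sites of chromosome 13.

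The mean level of the 186 sites was 53.9% in K1rep1, 47.1% in K1rep2, 51.3% in K2rep1 and 54.0% in K2rep2. K1rep2 was the lowest, and the mean of the 2 biological replicates was 51.6% ± 1.55 (SD, n = 2). This is the level of the whole table, whose 8492 sites stood at 51.7% ± 0.154 (SD, n = 2). The Mctp1 average joins stretches of differing level, from 17.4% in stretch 7 to 74.1% in stretch 3. Stretches 3 and 5 are set apart here because they were the highest, so the lower level of the rest follows from that choice. Stretches 3 and 5, with 100 sites, held all 61 sites at 50% or more in every library, and the other 5 stretches, with 86 sites, averaged 27.9% ± 1.19 (SD, n = 2) and had 0 such sites. The share of sites at 50% or more in every library was 32.8% in Mctp1 and 33.6% in the table.

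Stretch 3 had the highest mean level of the 7 with all 4 libraries counted. Its sites averaged 72.2% in K1rep1, 73.7% in K1rep2, 73.3% in K2rep1 and 77.3% in K2rep2, which gives 74.1% ± 1.64 (SD, n = 2). Stretch 2 averaged 35.5%, 34.8%, 35.4% and 33.0% in the same order, or 34.7% ± 0.670 (SD, n = 2). Stretch 7 was lowest, at 19.8%, 17.7%, 16.7% and 15.5%, or 17.4% ± 1.89 (SD, n = 2). The library means of these 3 stretches did not overlap, and the gaps between them were many times the SDs between biological replicates. Those SDs do not measure the spread of sites within a stretch, and single sites did overlap. Site means ran from 13.3% to 98.1% in stretch 3, 15.3% to 50.7% in stretch 2 and 10.7% to 20.6% in stretch 7. Stretch 1 stood at 18.3%, 22.5%, 13.9% and 15.7%, or 17.6% ± 3.95 (SD, n = 2), within its SD of stretch 7. The 4 sites of stretch 6 stood at 36.3%, 40%, 27.7% and 45.8%, or 37.5% ± 0.989 (SD, n = 2), and the single site of stretch 4 at 33.3%, 33.3%, 60% and 42.9%, or 42.4% ± 12.8 (SD, n = 2). Stretches 2, 4 and 6 overlapped one another across libraries and could not be ordered. The same held for stretches 3 and 5. Stretch 5 was the higher in K1rep1 and K2rep2 and the lower in K1rep2 and K2rep1. Without K1rep2 stretch 5 stood at 77.2% and stretch 3 at 73.7%.

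**Figure D2:**
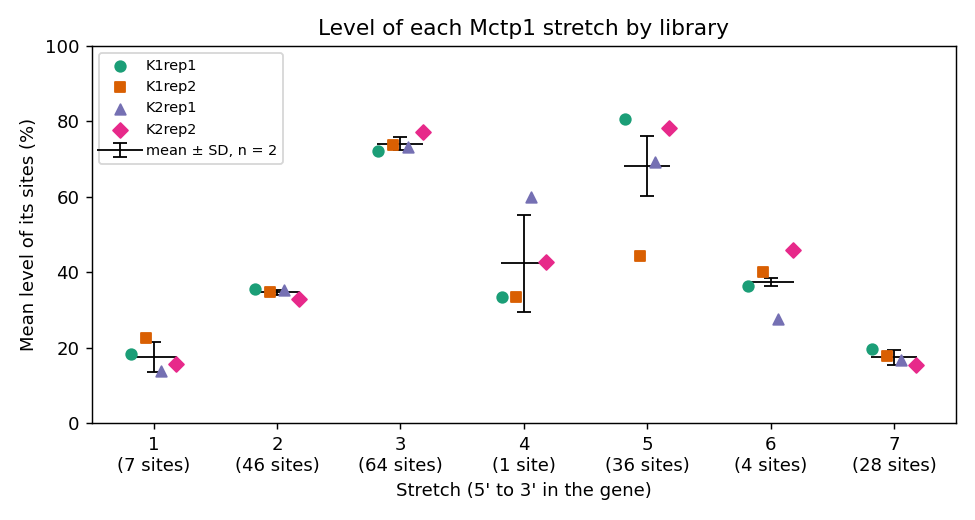
Mean level in percent (vertical axis) of the sites of each Mctp1 stretch (horizontal axis, with its number of sites) in the 4 Tet2-/- libraries (coloured symbols); the black tick and bar are the mean and SD of 2 biological replicates. Stretches 2, 3 and 7 are tight, while K1rep2 stands at 44.3% in stretch 5 against 69.2% to 80.7% in the other libraries.

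The distance between the stretches of a gene was large in Mctp1. Counting stretches of 10 or more sites, the highest and the lowest were 56.7 points apart, from 17.4% to 74.1%. Of 30 genes with at least 2 such stretches, only Inpp4b, a phosphoinositide phosphatase, had a wider difference, 68.8 points over 12 stretches. The next 2 genes after Mctp1 had 54.6 points over 5 stretches and 46.0 points over 6, and the median gene had 18.9 points. Mctp1 has 4 such stretches, and a gene with more of them has more room to differ, so the order is a description. Among all 146 stretches of 10 or more sites in the table, stretch 3 ranked 25th by level, stretch 5 ranked 37th, stretch 2 ranked 102nd and stretch 7 ranked 145th.

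Within stretch 3 the level rose and fell steeply over short distances, and the dips described below were seen in every library. Smaller steps were not always shared. From 76715192 to 76715203, for instance, K1rep1 rose from 35.7% to 60% while K2rep1 fell from 50% to 46.2%. The stretch was split wherever neighbouring site means differed by more than 20 points, a rule chosen after the values were seen. This left runs of high level parted by lower runs of differing length. The first 9 sites, from 76715157 to 76715182, stood at 84.6%, 92.6%, 85.0% and 81.4% in K1rep1, K1rep2, K2rep1 and K2rep2. The next 5 sites, to 76715206, stood at 48.3%, 54.3%, 46.1% and 54.6%, and the following 5, to 76715232, at 36.0%, 39.98%, 31.3% and 38.9%. The first and the third of these runs did not overlap in any library. From 76715236 to 76715287 it was back at 83.2%, 84.0%, 84.9% and 87.4% over 8 sites.

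The deepest dip was short, but its width is not resolved, since no site is listed between 76715287 and 76715301. Site 76715301 read 13.6%, 15.4%, 11.8% and 12.5%, or 13.3% ± 1.68 (SD, n = 2). The listed site before it, 76715287, read 89.5%, 85.7%, 87.5% and 78.3%, so that the mean fell by 71.9 points within 14 bases. This was the largest step between neighbouring sites of a stretch in the whole table, out of 8233 such pairs; the next largest was 70.4 points. The level then climbed over the following sites, with means of 26.7% at 76715303, 49.8% at 76715306 and 79.5% at 76715312. A second dip, at 76715321 with 52.4%, 27.3%, 46.7% and 42.9%, lay between 76715317 with a mean of 79.5% and 76715324 with 77.1%. The top of the stretch was reached at 76715374 and 76715379, both at 100%, 100%, 92.3% and 100%. No Mctp1 site read 100% in every library, although 25 did so in at least 1.

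**Figure D3:**
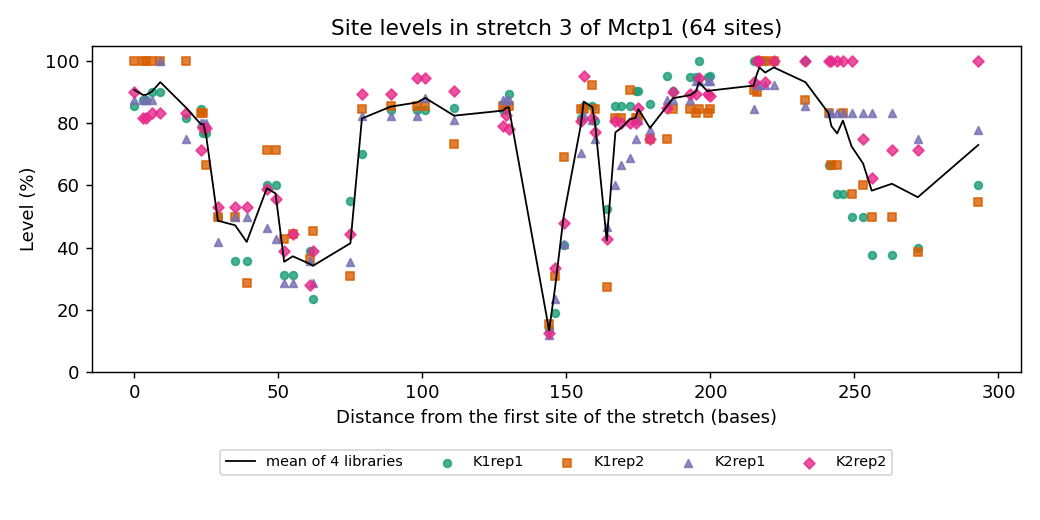
Level in percent (vertical axis) of the 64 sites of stretch 3 against the distance from its first site in bases (horizontal axis), with a symbol for each of the 4 Tet2-/- libraries and a line for their mean. All libraries share the dip to 13.3% at 144 bases, and at the right end both K2 libraries lie above both K1 libraries.

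At its 3′ end stretch 3 split by biological replicate. The 10 sites after 76715390, the last one with a mean of at least 90%, averaged 52.3% in K1rep1 and 61.0% in K1rep2 against 81.9% in K2rep1 and 88.0% in K2rep2. At 8 of the 10 sites both K2 libraries were above both K1 libraries, which held at 3 of the 54 sites before them. Site 76715406, for instance, read 50%, 57.1%, 83.3% and 100%. The 10 sites averaged 70.8% ± 20.05 (SD, n = 2) and the 54 sites before them 74.7% ± 1.77 (SD, n = 2). With rep1 and rep2 taken instead as the biological replicates, the 10 sites stood at 67.1% and 74.5% with an SD of 5.25 points. Between libraries the levels of these 54 sites had a Pearson's r of 0.872 to 0.940, a description over neighbouring sites that share reads. Of these, the pair K1rep1 and K1rep2 of biological replicate 1 had 0.880, below the 0.938 and 0.940 of K1rep1 with K2rep1 and K2rep2. The pair K2rep1 and K2rep2 of biological replicate 2 had 0.9405, the highest. Over all 64 sites r was from 0.764 to 0.903. There it was highest between K2rep1 and K2rep2 and next highest, at 0.878, between K1rep1 and K1rep2. Over all 186 Mctp1 sites K1rep1 and K1rep2 were the pair with the lowest r, 0.786. The end of the stretch was picked after its values were seen and no test of the split is given; 2 biological replicates allow none.

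Stretch 5 was about as high as stretch 3 in 3 libraries and lower in the remaining one. Its 36 sites averaged 80.7% in K1rep1, 69.2% in K2rep1 and 78.3% in K2rep2, and 44.3% in K1rep2. The mean of the 2 biological replicates was 68.1% ± 7.92 (SD, n = 2), and 77.2% without K1rep2. K1rep2 was below each of the other 3 libraries at 33 of the 36 sites, and the median gap to their mean was 33.1 points. The widest gap was at 76722806, which read 100%, 27.3%, 76.9% and 77.8%. The lowest site, 76722942, read 40%, 20%, 25% and 40%, below the sites on either side in each library. Sites at 50% or more in every library numbered 14 of 36, and 30 of 36 without K1rep2.

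**Figure D4:**
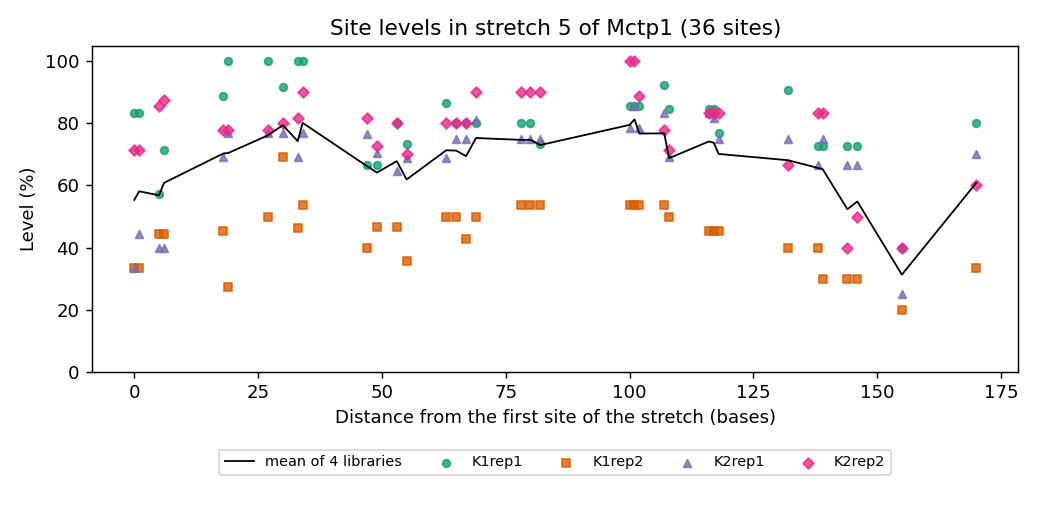
Level in percent (vertical axis) of the 36 sites of stretch 5 against the distance from its first site in bases (horizontal axis), with a symbol for each of the 4 Tet2-/- libraries and a line for their mean. K1rep2 (orange squares) runs below the other libraries along nearly the whole stretch and never exceeds 69.2%.

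The low level of K1rep2 did not extend to the rest of the gene. Over the 150 sites outside stretch 5 the library means were 47.4% in K1rep1, 47.8% in K1rep2, 47.0% in K2rep1 and 48.2% in K2rep2, a spread far smaller than with stretch 5 included. Over the whole table K1rep2 averaged 49.5% and K2rep1 49.9%, against 53.7% and 53.8% in K1rep1 and K2rep2. Since K1rep1 and K1rep2 are technical replicates of 1 biological replicate in the reading used here, the difference in stretch 5 lay between technical replicates. With rep1 and rep2 as the biological replicates the stretch stood at 74.9% and 61.3%, with an SD of 9.64 points.

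Set beside other stretches, stretch 5 had the widest spread between libraries and the other Mctp1 stretches some of the narrowest. The highest and lowest library differed by 36.3 points in stretch 5, which ranked 1st of the 146 stretches of 10 or more sites; the next had 35.3 points and 12 sites, and the median was 12.9 points. In stretch 3 they differed by 5.07 points (rank 129), in stretch 7 by 4.29 points (rank 134) and in stretch 2 by 2.49 points (rank 143). No listed value is below 10%, so a low stretch such as stretch 7 has less room to differ. In stretch 3 the small difference covers a wider one in its last 10 sites, from 52.3% in K1rep1 to 88.0% in K2rep2. At single sites a range of 30 points or more between libraries was seen at 46 Mctp1 sites (24.7%) and at 31.8% of the table's sites. Of the 46, 33 were in stretch 5, 10 in stretch 3 and 3 in stretch 2.

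**Figure D5:**
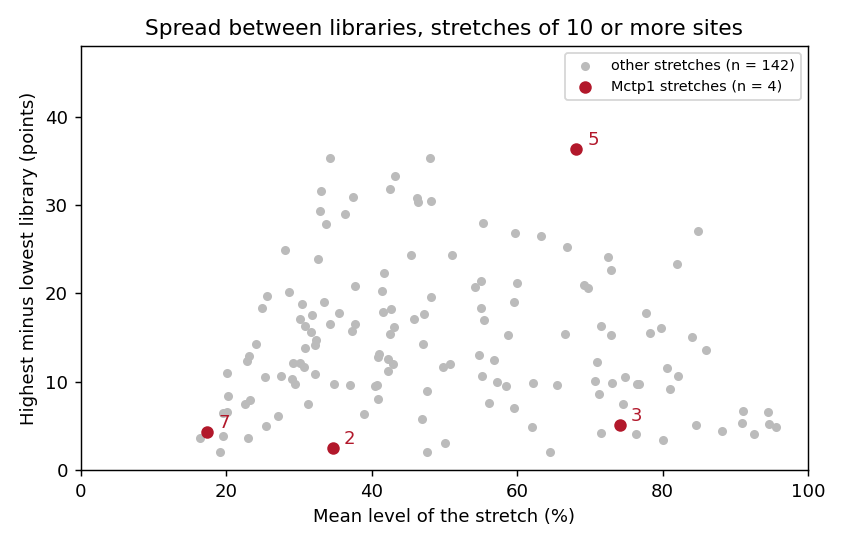
Highest minus lowest library mean in points (vertical axis) against the mean level in percent (horizontal axis) for the 146 stretches of 10 or more sites; red points are Mctp1 stretches 2, 3, 5 and 7 and grey points the other 142. Stretch 5 lies at the top with 36.3 points, and the other 3 Mctp1 stretches lie near the bottom.

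Stretch 2 was longer and less dense than stretches 3 and 5, with 4.87 sites per 100 bases against 21.8 and 21.1, and the median of the 146 stretches was 11.1. Joining sites only up to 100 bases apart broke it into 3 pieces of 36, 6 and 4 sites, at 36.7% ± 1.37, 32.3% ± 5.11 and 20.7% ± 3.00 (SD, n = 2 for each), so the level was lower in the last piece than in the first. Its site means ran from 15.3% at 76587431 to 50.7% at 76586693, the latter reading 46.2%, 50%, 63.6% and 42.9%. Stretch 7 was flat by comparison, with site means between 10.7% at 76971909 and 20.6% at 76971720. Stretch 7 held 7 of the 9 Mctp1 sites under 20% in every library. Such sites made up 4.84% of the Mctp1 sites and 2.45% of the whole table. The table lists no value below 10%, so sites of this region that fell under that level in a library would be missing. Between libraries the site levels of stretch 7 correlated from -0.341 to 0.279, so the libraries showed no common profile along the stretch. In stretch 2 the range was 0.337 to 0.667.

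Listed cytosines that touch each other had similar levels. Of the 179 pairs of neighbouring Mctp1 sites within a stretch, 39 were directly adjacent bases, and their means differed by a median of 2.27 points and at most 7.998. Pairs 2 to 10 bases apart numbered 106, with a median difference of 2.92 and a largest one of 40.2 points, the step up at 76715236. The 28 pairs 11 to 50 bases apart had a median of 5.74 points. The same medians over the table were 1.92, 3.01 and 5.29 points. The 6 pairs 51 to 500 bases apart had a median of 3.05 points, against 9.44 over the table. All 6 lay in stretches 2 and 7 and none in the higher stretches 3 and 5. Another listed site lay within 10 bases of 92.5% of the Mctp1 sites and of 93.7% of all sites.

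Among the 110 genes with listed sites Mctp1 ranked 11th by number of sites, and among the 53 genes with 10 or more it ranked 24th by level. The genes whose 4 library means were most like those of Mctp1, by the root mean square difference over the 4 libraries, were Inpp4b at 2.96 points, the cytochrome P450 gene Cyp4a12b, whose near copy Cyp4a12a may share its reads, at 3.34, the plexin domain gene Plxdc2 at 3.99, the signalling adaptor Gab2 at 4.06 and the zinc finger gene Zfand6 at 4.69. Their mean levels were 51.7%, 51.7%, 53.2%, 52.9% and 51.4%. These genes were picked by the same 4 library means, so their likeness in level is given by the choice. Gab2 read 59.3%, 43.5%, 56.0% and 52.9% in K1rep1, K1rep2, K2rep1 and K2rep2, and Zfand6 50.04%, 42.0%, 52.6% and 60.8%. Both had their lowest mean in K1rep2, as did Mctp1. Inpp4b and Plxdc2 were lowest in K2rep1, and Cyp4a12b in K2rep2. K1rep2 was also the lowest library over the whole table, at 49.5%, so a low K1rep2 is not particular to these genes.

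Genes of membrane proteins with C2 domains, of mast cell exocytosis and of calcium entry were also counted. A role of Mctp1 in mast cell release was not tested. Of 46 genes of membrane proteins with C2 domains, only Mctp1 had a listed site, and it was picked for its sites. The list held MCTPs, synaptotagmins, extended synaptotagmins, ferlins, UNC13 proteins and copines, among others. Its other genes, Mctp2 included, had none. Of 18 genes of mast cell exocytosis, 1 had sites: Rab27b, the GTPase that docks secretory granules, with 219 sites at 90.8% ± 1.35 (SD, n = 2). Of 10 genes of calcium entry, such as Stim1, Orai1 and the IP3 receptors, 0 had sites. Over all protein-coding genes of the annotation the share with a listed site was 0.438%, so counts of 0 or 1 in lists of this length show no lack of sites. Of 10 mast cell markers 2 had sites, Il1rl1 and Cpa3, and of the 16 markers of neutrophils, macrophages, basophils, B cells and T cells 0 had. A listed site says that reads were present, not how strongly a gene is expressed, so the labelled cell type could not be checked from these values, and a gene without a site may have lacked reads, had lower levels or not been chosen by the authors.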

How the data were processed

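RNA bisulfite libraries of poly(A) RNA with an unmethylated lambda RNA spike-in were made per the labels' protocols, with mm10 and GRCm38 given as builds in the submitters' processing notes. Which aligner, caller and coverage minimum were used, and which conversion rate was reached, is not given in the sources used here. Values as deposited are methylation rates, each a fraction per site and library per the file headers, for sites the authors list as specific to the Tet2-deficient group. They were multiplied to percent. Sites were assigned to RefSeq gene spans of GRCm38.p6. Technical replicates were averaged within each biological replicate, and the mean and SD are over 2 biological replicates. Libraries were matched to columns by genotype letter and replicate numbers. Whether the biological replicates were separate animals is not stated in the labels.

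Members, lists, alternatives and the rule for named genes were chosen with earlier results of these data known. Named genes are Mctp1, the 5 genes of 10 or more sites nearest to it by library means, members of the C2 domain, exocytosis and calcium entry lists with sites, and the neighbouring genes. All list genes were matched to the annotation. No difference was tested, since the sites were selected on these libraries. Of genome sequence only the RefSeq promoter windows were used, so bases around the sites are not shown. Stretch finding and gene likeness were tried on simulated data. Its sites lay close together and its stretches far apart, so gaps near the limit of 500 bases were not checked. Python 3.11.15, numpy 2.4.6, pandas 2.3.3 and matplotlib 3.10.9 were used.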

Additional observations from a re-analysis of the deposited data

How the results depend on the processing

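The mean level of 51.6% became 30.9% without clustered sites (a second listed site lies within 10 bases), 46.6% as a median over sites, 62.8% with sites at 20% or more in every library, 41.7% with each stretch counted once and 53.3% without the library K1rep2. It was 50.5% to 52.7% with either biological replicate left out, and the same with the span extended by 1 kb. The number of sites was 14 without clustered sites, 139 at 20% or more in every library and 147 with adjacent positions merged. There were 11 stretches with sites joined up to 100 bases apart and 7 at up to 1000. The 9 sites under 20% in every library became 15 without K1rep2, and the 61 sites at 50% or more became 77 without it. Stretch 2 moved from 34.7% to 28.4% without clustered sites, 33.3% as a median and 38.3% at 20% or more in every library. Stretch 3 moved from 74.1% to 82.9% as a median and 75.9% at 20% or more, and stretch 5 from 68.1% to 77.2% without K1rep2. The level minimum raises means by its construction. Leaving out a library can only raise a count that needs every library, and leaving out the lowest one raises a mean. K1rep2 was the lowest over the gene and in stretch 5. Counting each stretch once gives the 100 sites of stretches 3 and 5 less weight. Of the unclustered sites, only 76715450 was in stretch 3 and only 76722957 in stretch 5. The cause of the remaining changes was not tested. Stretch 6 has no value without clustered sites, and stretches 1 and 7 none at 20% or more, since no site remains. The settings without K1rep2, with 40% or 60% as the high level and with a level minimum per stretch were chosen after seeing the data. With 2 replicates, leaving out either moves a mean by less than the SD by construction. No paired analysis was possible because only levels of Tet2-/- libraries were used. With the depth unknown, its limits cannot be given.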

Other observations

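The Mctp1 sites that were under 20% in every library were not all in stretch 7. Site 76587431 in stretch 2 read 15.4%, 18.2%, 16.7% and 11.1% in K1rep1, K1rep2, K2rep1 and K2rep2, with a mean of 15.3%. The lowest site of the gene, 76971909 in stretch 7, read 11.1%, 10.0%, 11.5% and 10.0%, at the minimum of the table in 2 libraries. In the short stretch 1, the highest of 7 sites was 76582752, which read 30.8%, 20%, 15.4% and 13.3%.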
